A study of Rattus norvegicus with 9 samples.

Results

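Alcam, Cd47, Cdh2, Cdh22, L1cam, Ncam1 and Thy1 encode cell surface proteins through which neurons adhere to each other and to their surroundings. They are represented on the Rat Genome U34A array by 14 of its 8740 probe sets other than array controls, and they are 7 of the 4736 genes that a probe set names alone. The set was chosen by results of the same arrays: Alcam, Cd47 and Cdh2 were known to be lower and Thy1 higher at 24 hr, and Cdh22 was known to be higher at 6 hr. L1cam and Ncam1 were added as adhesion genes of neurons. The changes below are therefore a description, and no test of them is independent of the choice.

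RNA was measured in sympathetic neurons from superior cervical ganglia of E21 Holtzman rats, with 3 arrays for each of 3 conditions. BMP6h and BMP24h cultures were given BMP-7 at 50 ng/ml on day 5 in culture for 6 or 24 hr, and control cultures were kept for 24 hr in the same serum-free medium without BMP-7. All 3 conditions were grown on collagen with 100 ng/ml of nerve growth factor and had been exposed to Ara-C for 48 hr, which kills dividing cells and so depletes non-neuronal cells. RNA was pooled within a condition, each of 3 repeats of the experiment gave 1 sample per condition from a single dissection, and arrays were hybridized in batch 1 (replicate 1 of every condition, 10 µg of cRNA) or batch 2 (replicates 2 and 3, 5 µg).

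Adhesion molecules of the immunoglobulin superfamily (Alcam, L1cam, Ncam1, Thy1, and Cd47 by its outer domain) and cadherins (Cdh2, Cdh22) bind partners on neighbouring cells. Ig family members do so without calcium, whereas cadherins need calcium and are linked through catenins to actin. In neurons both families act in axon growth, in the bundling of axons and at synapses. BMP-7 is a ligand whose receptors activate Smad transcription factors, and in cultured sympathetic neurons it induces dendrites.

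Values are log2 expression, so that a difference of 1 is a doubling, and they ran from 2.69 to 14.38 over all probe sets. BMP6h replicate 2 stood apart: 9.99% of its probe sets differed by over 1 log2 unit from the average of the remaining 2 BMP6h arrays. The same share was 4.21% for BMP6h replicate 3, 3.84% for control replicate 3 and at most 1.09% for the other 6. Probes of different sets bind with different strength, so a level is compared only within a probe set. In such bulk RNA, fewer cells of a type and less RNA per cell cannot be told apart.

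RefSeq promoter sequences (GRCr8, 250 bases before to 50 after the transcription start) were matched for 3 of the 7 genes. All that matched are shown, whatever their values, and Cdh2, L1cam, Ncam1 and Thy1 had no match. Of the genes shown, probe sets of Alcam and Cd47 lay below all control arrays at 24 hr. For Cdh22, 1 probe set lay above them at both times. Capitals mark GTCT or its reverse complement AGAC, the core bound by Smad proteins.
Alcam promoter, chr11:61805207-61805506, + strand: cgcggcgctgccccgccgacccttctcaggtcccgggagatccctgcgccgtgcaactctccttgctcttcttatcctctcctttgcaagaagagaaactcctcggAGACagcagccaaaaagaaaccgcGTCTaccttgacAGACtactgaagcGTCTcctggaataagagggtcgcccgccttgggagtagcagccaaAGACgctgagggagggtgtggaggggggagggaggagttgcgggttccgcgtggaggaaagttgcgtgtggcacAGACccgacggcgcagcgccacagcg
Cd47 promoter, chr11:64438139-64438438, - strand: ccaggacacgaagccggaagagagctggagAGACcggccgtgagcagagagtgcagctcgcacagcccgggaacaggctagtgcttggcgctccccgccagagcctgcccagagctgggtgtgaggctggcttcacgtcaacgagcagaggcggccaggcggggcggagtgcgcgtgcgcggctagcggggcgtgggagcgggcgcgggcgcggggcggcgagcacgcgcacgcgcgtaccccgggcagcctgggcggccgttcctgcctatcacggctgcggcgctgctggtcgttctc
Cdh22 promoter, chr3:174389843-174390142, - strand: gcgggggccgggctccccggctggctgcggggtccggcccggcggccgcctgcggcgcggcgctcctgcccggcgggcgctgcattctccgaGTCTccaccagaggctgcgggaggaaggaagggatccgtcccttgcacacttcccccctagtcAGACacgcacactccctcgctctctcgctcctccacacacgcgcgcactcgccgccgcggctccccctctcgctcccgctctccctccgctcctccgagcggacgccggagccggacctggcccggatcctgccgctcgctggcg
The Alcam window held 6 matches, the Cdh22 window 2 and the Cd47 window 1, counted on both strands without overlap between motifs, and 88.8% of 33469 promoters of this length held at least 1. Neither GGCGCC, a GC-rich Smad motif, nor CACCTG, an E-box, was found in the 3 windows on either strand (11% and 18.8% of all promoters hold them). The 3 motifs were chosen after the values were seen, and a match of letters is not a binding site. The GC content was 62.0% for Alcam, 73.3% for Cd47 and 76.0% for Cdh22, and the median over all promoters was 51.7%.

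After 24 hr of BMP-7, all 3 arrays lay below every control array on 5 of the 7 probe sets of Alcam, Cd47 and Cdh2. So did 7.07% of all probe sets, and these 3 genes were chosen because they were known to be lower. Alcam, an adhesion molecule that binds itself and CD6 and favours axon growth and bundling, was measured by 3 probe sets. On AB008538_at the BMP24h arrays had 9.26, 9.05 and 9.73 (replicates 1 to 3), against 10.24, 9.89 and 10.42 on the control arrays. All 3 BMP24h values lay below the lowest control value. The log2 fold change was -0.83 (standard error 0.23), a level lower by 1.78-fold. It was -0.98 in batch 1 and -0.76 in batch 2, and it ran from -1.04 to -0.67 when single arrays were left out. At 6 hr the arrays had 9.95, 9.68 and 10.12, within or just below the control range, and the log2 fold change was -0.27 (standard error 0.23). With the replicate number as a block the standard error was 0.11 at both times. The difference at 6 hr then just passed the thresholds of the study's Methods (an unadjusted p under 0.05 together with a change of 1.2-fold or more). In this limma fit its unadjusted p was 0.0498 and its adjusted p 0.758. On the other 2 Alcam probe sets the differences were smaller. X95850mRNA_at had 8.88, 9.12 and 8.92 at 24 hr, against 8.96, 9.00 and 8.75 in control cultures, and X95850mRNA_g_at had 7.51, 7.52 and 7.38, against 7.79, 7.59 and 7.52. Their log2 fold changes at 24 hr were 0.07 (standard error 0.13) and -0.16 (standard error 0.26), with overlapping groups. At 6 hr X95850mRNA_g_at had 0.19, which was -0.15 without BMP6h replicate 2, whose value of 8.45 was the highest of the 9. The change of Alcam thus differed between probe sets by up to 0.90 at 24 hr, and the transcript that each set detects was not examined.

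Cd47, a membrane protein that binds the inhibitory receptor Sirpa, thrombospondins and integrins, had 2 probe sets and both were lower at 24 hr. AF017437_at had 9.16, 9.44 and 9.31 on BMP24h arrays, against 9.88, 9.78 and 9.98 on control arrays. The log2 fold change was -0.58 (standard error 0.14, a 1.49-fold lower level), between -0.65 and -0.47 without single arrays. The 6 hr arrays (10.01, 9.87 and 9.71) overlapped the control arrays (log2 fold change -0.01, standard error 0.14) and lay above all 3 arrays of 24 hr. AF017437_g_at had 7.09, 7.17 and 7.13 at 24 hr, against 7.69, 7.30 and 8.23 in control cultures. The 24 hr values were close together while the control values spread over almost 1 log2 unit. The log2 fold change of -0.61 (standard error 0.22) was -0.34 without control replicate 3 and -0.85 without control replicate 2. At 6 hr it was -0.25 (standard error 0.22), from arrays at 7.58, 7.50 and 7.39.

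Cdh2, the N-cadherin of neurons, glia and fibroblasts, binds itself across cell contacts. AF097593_at had 7.36, 7.78 and 7.25 on BMP24h arrays, against 7.88, 8.01 and 7.95 on control arrays. The groups did not overlap, although BMP24h replicate 2 came close to control replicate 1. AF097593_g_at had 6.98, 6.57 and 7.18 at 24 hr, against 7.51, 7.85 and 7.95. The log2 fold changes were -0.48 (standard error 0.17) and -0.86 (standard error 0.25), levels lower by 1.40-fold and 1.82-fold, and with AF097593_g_at the difference was -0.53 in batch 1 and -1.03 in batch 2. Both probe sets were lower at 24 hr in each batch, which follows from groups that do not overlap. At 6 hr their log2 fold changes were -0.15 (standard error 0.17) and -0.25 (standard error 0.25), and that of AF097593_g_at was 0.00 without BMP6h replicate 2.

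**Figure D1:**
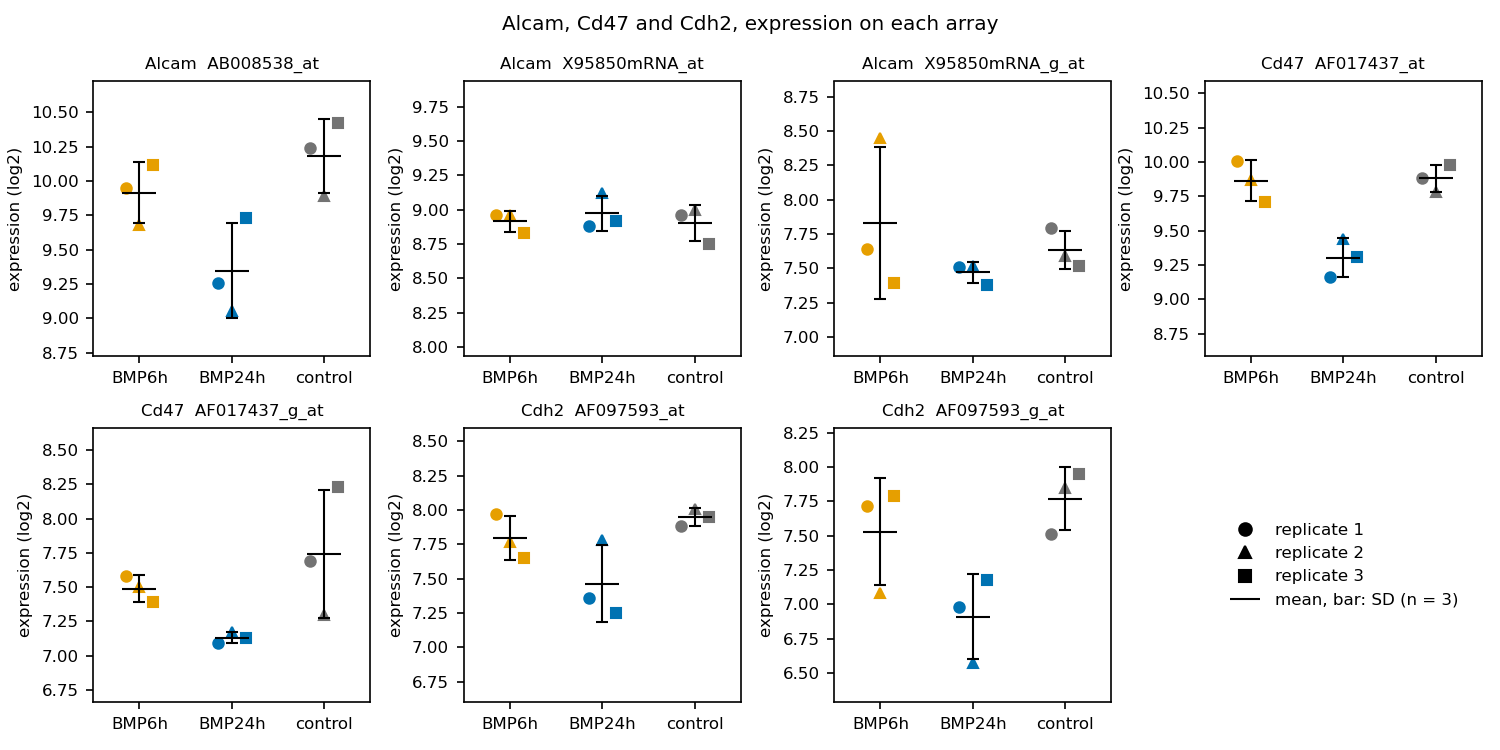
Expression (log2, y axis) of the probe sets of Alcam, Cd47 and Cdh2 on each BMP6h, BMP24h and control array (symbols: replicates 1 to 3; lines and bars: mean and SD, n = 3). At 24 hr the arrays lie below all control arrays on 5 of the 7 probe sets, and on both X95850mRNA sets of Alcam they overlap the control arrays. Over all probe sets of the array, 7.07% lie below all control arrays at 24 hr.

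Cdh22, a cadherin first described in rat pituitary and brain, lay above every control array at both times on 1 of its 2 probe sets. Over all probe sets, 3.65% lay above every control array at 6 hr and 5.61% at 24 hr. D83348_at had 6.51, 6.93 and 6.61 on BMP6h arrays, against 6.05, 6.26 and 5.35 on control arrays. The BMP24h arrays had 6.55, 6.57 and 6.49, also above every control array. The log2 fold change was 0.79 at 6 hr (standard error 0.24, 1.73-fold) and 0.65 at 24 hr (standard error 0.24, 1.57-fold). Control replicate 3 was the lowest array, and without it the values were 0.50 and 0.36. Without BMP6h replicate 2, the highest array, the difference at 6 hr was 0.66. D83348_at was among the dimmer probe sets of the array, and the deposited values carry no detection call. D83349_at, the brighter set of Cdh22, gave 10.40, 10.56 and 10.48 at 6 hr and 10.59, 10.41 and 10.38 at 24 hr, against 10.34, 10.35 and 10.48 in control cultures. Its log2 fold changes were 0.09 and 0.07 (standard error 0.12 each), with overlapping groups.

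Thy1, a small GPI-anchored Ig protein abundant on the surface of mature neurons and also made by fibroblasts, was higher at 24 hr and close to control at 6 hr. X02002_at had 11.21, 11.18 and 11.25 on BMP24h arrays, against 10.92, 10.88 and 11.03 on control arrays. The 24 hr arrays were close together and above all 6 others. The log2 fold change was 0.27 (standard error 0.11, 1.21-fold), 0.29 in batch 1 and 0.26 in batch 2. On rc_AA874848_s_at the values were 13.03, 12.88 and 13.24 at 24 hr, against 12.84, 12.68 and 12.89, and the groups overlapped by BMP24h replicate 2. The log2 fold change was 0.25 (standard error 0.13), 0.15 without BMP24h replicate 3 and 0.35 without BMP24h replicate 2. At 6 hr the 2 sets had -0.01 (standard error 0.11) and 0.01 (standard error 0.13).

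L1cam and Ncam1 differed little between conditions. L1cam, which binds itself, links to the cytoskeleton through ankyrins and acts in axon growth and bundling, ranged from 10.79 to 10.98 over the 9 arrays of X59149_at. It had 10.97, 10.98 and 10.84 at 24 hr, against 10.84, 10.81 and 10.81, a log2 fold change of 0.11 (standard error 0.11). Ncam1, the neural cell adhesion molecule that carries polysialic acid, had log2 fold changes of 0.01 (standard error 0.14) on X06564_at and 0.03 (standard error 0.13) on rc_AI137246_s_at at 24 hr. At 6 hr the values were 0.03 for L1cam and -0.01 and 0.00 for Ncam1. X06564_at ranged from 8.12 to 8.48, both of them control arrays. On rc_AI137246_s_at the range was 7.80 to 8.15, with the control arrays among the others. With 3 arrays a condition, differences of the size of these standard errors were not detectable.

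**Figure D2:**
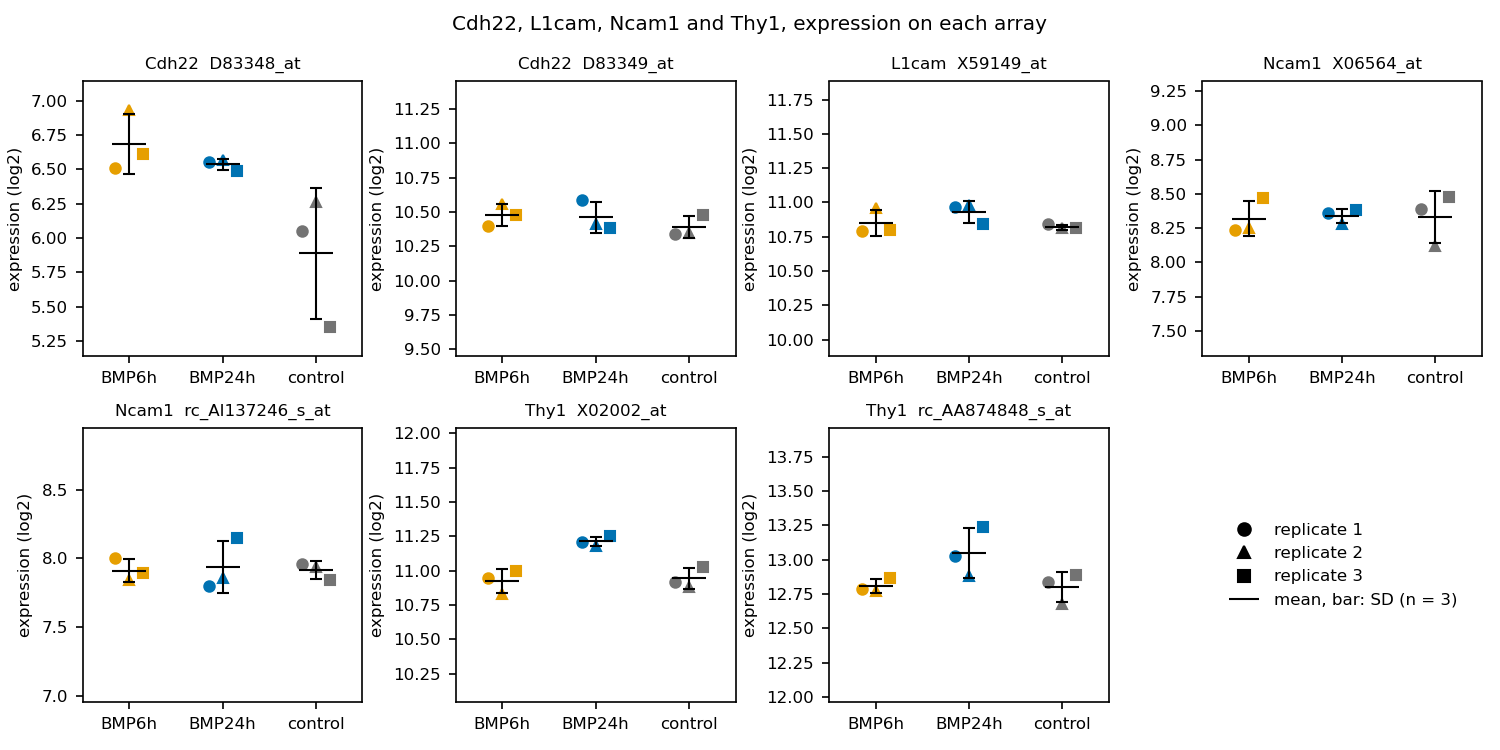
Expression (log2, y axis) of the probe sets of Cdh22, L1cam, Ncam1 and Thy1 on each BMP6h, BMP24h and control array (symbols: replicates 1 to 3; lines and bars: mean and SD, n = 3). Control replicate 3 is low for Cdh22 on D83348_at (5.35), and the 3 arrays of 24 hr lie above the others for Thy1 on X02002_at.

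In the limma fit of condition and batch, with Benjamini-Hochberg adjustment across the 8740 probe sets, none of the 14 probe sets had an adjusted p under 0.05 at 6 hr or 24 hr. Over all probe sets 0.0458% passed at 6 hr and 0.217% at 24 hr, and 0% between 24 hr and 6 hr, so no member passed there either. The study's two-way analysis of variance, fitted again here with the same adjustment, also gave 0 members in each comparison. The study itself did not adjust its p-values, and it names Alcam, Cd47 and Cdh2 as repressed by BMP-7. Limma with array weights gave 0 at 6 hr, 5 at 24 hr and 3 between the times. With these weights 29, 280 and 198 of all probe sets passed, in the same order. Unadjusted p-values under 0.05 in limma were held by 1, 7 and 4 members in the order 6 hr against control, 24 hr against control and 24 hr against 6 hr. Of all 8740 probe sets 151, 297 and 259 had one, in the same order. The study's Methods list genes by an unadjusted p under 0.05 together with a change of 1.2-fold or more. By these thresholds 5 members were lower at 24 hr (Alcam AB008538_at and both sets of Cd47 and of Cdh2), where 1.74% of all probe sets were, and 2 were higher (Cdh22 D83348_at and Thy1 X02002_at), where 1.6% were. At 6 hr only Cdh22 D83348_at was higher and 0 were lower, where 0.881% and 0.847% of all probe sets were. In the refit of the study's two-way analysis of variance 5 members passed at 24 hr in place of 7, and 1 at 6 hr. Cd47 AF017437_g_at and Cdh22 D83348_at did not pass in it at 24 hr. Since the genes were chosen on these contrasts, nothing is read from the shares. The same members were those whose groups did not overlap: 5 lower and 2 higher at 24 hr (7.07% and 5.61% of all probe sets), and 1 higher and 0 lower at 6 hr (3.65% and 6.96%). The median log2 fold change of the 14 was 0.02 at 24 hr and -0.01 at 6 hr, against 0.007 and -0.024 over all probe sets.

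Between the 2 times, 3 members were lower at 24 hr than at 6 hr by the thresholds of the Methods (1.52% of all probe sets), and 1 was higher (1.4%). Alcam AB008538_at had a log2 fold change of -0.57 (standard error 0.23), Cd47 AF017437_at -0.56 (standard error 0.14) and Cdh2 AF097593_g_at -0.62 (standard error 0.25). Thy1 X02002_at had 0.28 (standard error 0.11). For Cd47 AF017437_at and Thy1 X02002_at the 24 hr and 6 hr arrays did not overlap, whereas for the sets of Alcam and Cdh2 they did by 1 array. Cdh22 D83348_at differed by -0.14 (standard error 0.24). These differences and those against control share arrays, so they are not separate evidence.

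**Figure D3:**
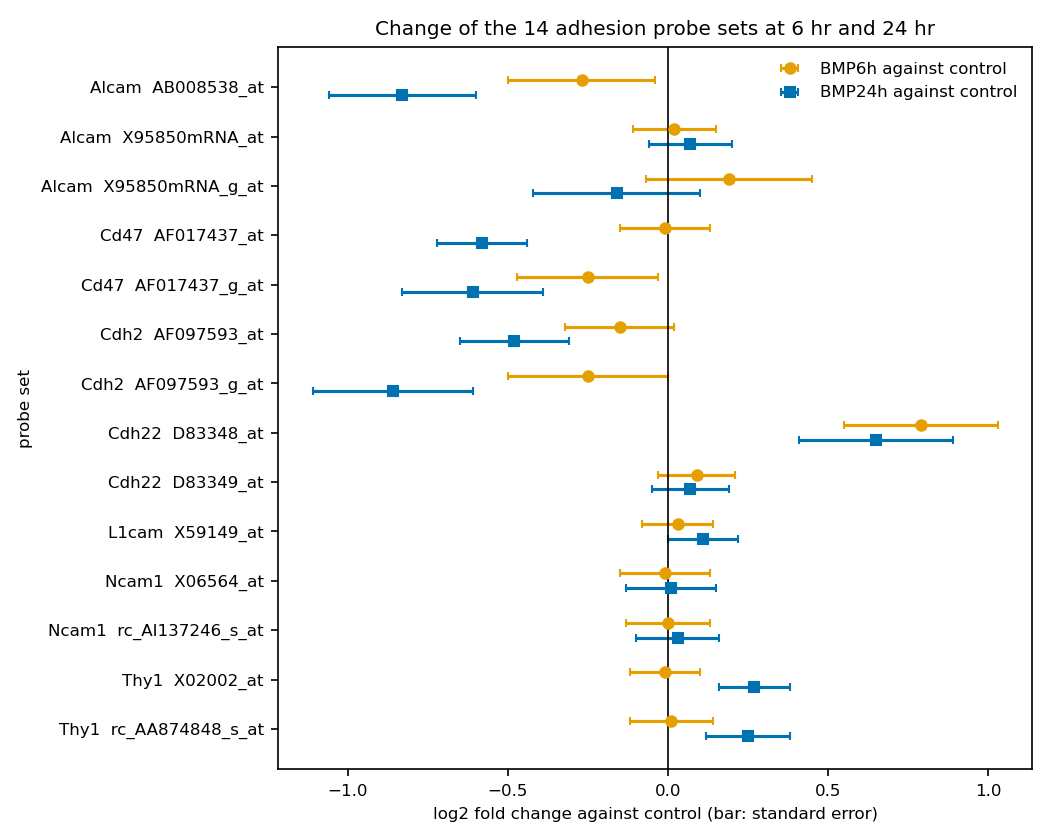
Log2 fold change against control (x axis, bars: standard error) of the 14 probe sets, after 6 hr (circles) and 24 hr (squares) of BMP-7. Alcam AB008538_at and both sets of Cd47 and Cdh2 lie between -0.86 and -0.48 at 24 hr, while Cdh22 D83348_at is the only set above 0.5.

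Within each batch the 7 members past these thresholds at 24 hr kept their sign. This follows from groups that do not overlap, so it is no separate check. Batch 1 holds 1 array of each condition and batch 2 holds 2. Cd47 AF017437_at had -0.72 and -0.50, AF017437_g_at -0.61 in both, Cdh2 AF097593_at -0.53 and -0.46, and Cdh22 D83348_at 0.50 and 0.73. Alcam AB008538_at, Cd47 AF017437_at and Cdh2 AF097593_g_at stayed past the thresholds in all 9 fits that left out 1 array. Cdh2 AF097593_at did so in 6 of 9, Cdh22 D83348_at in 5, Cd47 AF017437_g_at in 4 and Thy1 X02002_at in 2.

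**Figure D4:**
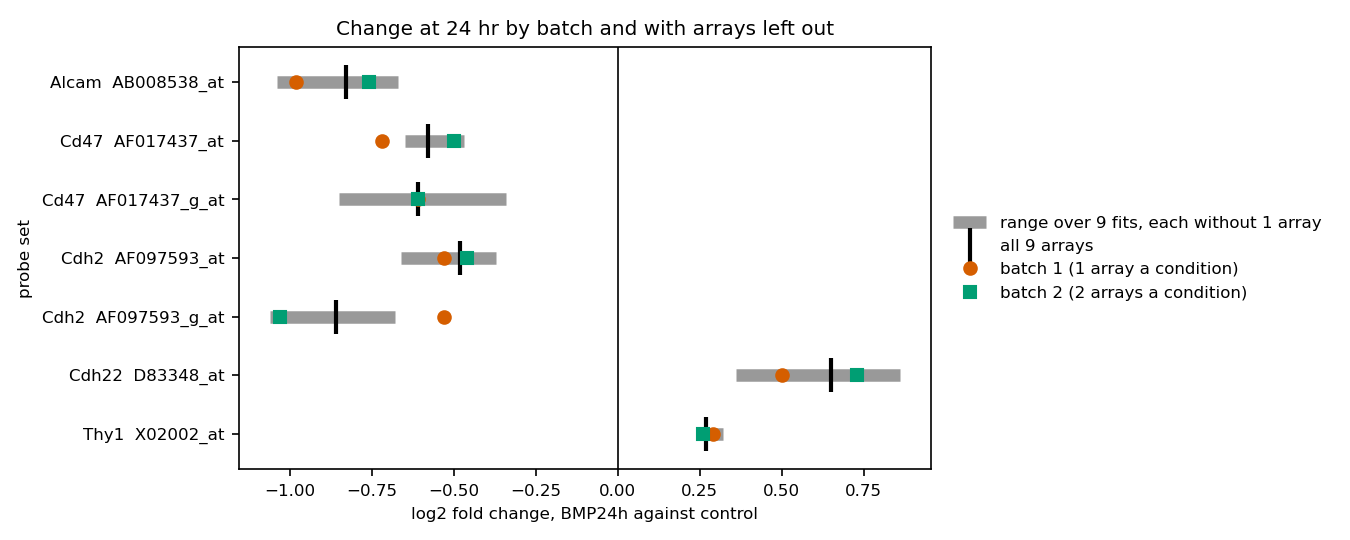
Log2 fold change at 24 hr against control (x axis) of the 7 probe sets past the thresholds of the Methods, for all 9 arrays (line), batch 1 (circle), batch 2 (square) and the range without single arrays (grey bar). No value crosses 0, which for the batches follows from groups that do not overlap. The ranges are widest for Cd47 AF017437_g_at (-0.85 to -0.34) and Cdh22 D83348_at (0.36 to 0.86).

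Markers of other cells were measured beside these genes. Of 20 fibroblast and matrix markers 19 had a probe set, and the log2 of their summed level was 14.11 to 14.25 on BMP24h arrays and 14.37 to 14.45 on BMP6h arrays, against 14.38 to 14.49 on control arrays. The 24 hr arrays lay below all others for this list. At 24 hr 13 of the 19 were lower and 6 were higher. Of the lower, 5 passed the thresholds of the Methods, among them Dcn (decorin, -0.73, standard error 0.17) and Igfbp3 (-1.27, standard error 0.26), whereas Col1a1, a collagen chain, had 0.08. The part of such cells in the lower values of Alcam, Cd47 and Cdh2 was not tested. The study reports Igfbp3 and Mgp, both on this list, as genes lowered by BMP-7 in the neurons. It describes the cultures as free of other cell types. The 14 of 16 neuron markers measured had summed levels of 15.96 to 16.08 at 24 hr, against 16.02 to 16.05. The 13 of 17 satellite glia and Schwann cell markers had 12.95 to 13.15, against 12.92 to 13.04. This glial sum is set mostly by its brightest markers, Pmp22 and Ngfr (control means 12.03 and 10.90). The study reports Ngfr as raised by BMP-7 in these neurons, so the sum is not a level of glia alone. Macrophage and blood cell markers (9 of 11) had 10.46 to 10.88, against 10.53 to 10.76, and endothelial and mural markers (6 of 11) 9.36 to 9.49, against 9.44 to 9.79. The summed levels of these 4 lists overlapped between 24 hr and control arrays. By the mean log2 level of its markers the endothelial and mural list did not, with 6.29 to 6.42 at 24 hr, against 6.47 to 7.03, and Kdr, a receptor of vascular growth factor, passed the thresholds of the Methods (-1.39, standard error 0.56) although its groups overlapped. At 6 hr, the endothelial and mural list lay below the control arrays by both measures (summed level 9.16 to 9.40), and the fibroblast list overlapped them. By mean log2 level alone, neuron markers were slightly above the control arrays at 6 hr (11.34 to 11.43, against 11.30 to 11.33) and glial markers slightly below them (7.38 to 7.41, against 7.44 to 7.47). The part of any of these in the members' values was not tested. No marker is at 0 on an RMA scale, and which were undetected is not known.

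Other genes of adhesion were described from 6 lists of 108 genes, of which 59 had a probe set, each at its brightest. At 24 hr 28 were higher and 31 lower, with a median log2 fold change of -0.01 (0.01 over all probe sets). By the thresholds of the Methods 1 was higher and 2 were lower, and the lowest adjusted p of the 59 in limma was 1.0. Cntn2, a contactin of growing axons that binds L1cam and related molecules, had 7.68, 7.83 and 7.69 on BMP24h arrays, against 7.39, 7.52 and 7.34 on control arrays (0.32, standard error 0.13). Nectin1, an Ig adhesion molecule of cell junctions, had 9.71, 9.99 and 9.40, against 10.13, 10.13 and 10.27 (-0.48, standard error 0.17). Neither group overlapped its control. Fgfr1, a growth factor receptor that Ncam1 and Cdh2 can engage, had 7.89, 8.15 and 7.80 on S54008_i_at, against 8.37, 8.21 and 8.85 (-0.53, standard error 0.23), but its other 2 sets had 0.05 and -0.26. At 6 hr 30 of the 59 were higher and 29 lower, the median was 0.00, and 0 passed the thresholds of the Methods.

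The lists of known partners held few differences. All 4 measured partners of Cd47 were lower at 24 hr by small amounts, between -0.15 for Sirpa and -0.03 for the integrin chain Itgb3, and none passed the thresholds of the Methods. St8sia2 and St8sia4, the enzymes that add polysialic acid to Ncam1, had 0.00 (standard error 0.29) and 0.03 (standard error 0.15). Both were dim, with control means of 4.61 and 4.26 on arrays with medians of 6.80 to 6.86. Whether they were detected is not known. Of 8 catenins and related plaque proteins 3 were measured, and their log2 fold changes at 24 hr were -0.09 for Ctnnd2, 0.05 for Pkp4 and 0.21 for Jup. Among 7 other cadherins and protocadherins with a probe set 3 were higher and 4 lower, with a median of -0.11 and 0 past the thresholds of the Methods. The list of neurexins, neuroligins and other adhesion genes had 9 of 14 higher with a median of 0.08. Single values in this paragraph were chosen after they were seen.

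**Figure D5:**
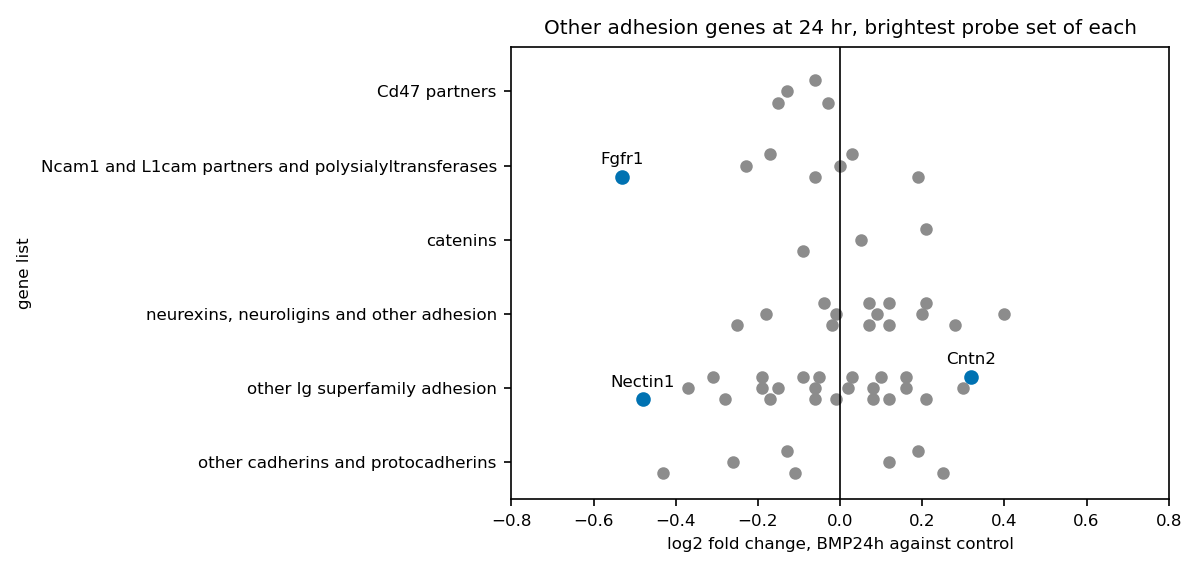
Log2 fold change at 24 hr against control (x axis) of 59 other adhesion genes in 6 lists (rows), each at its brightest probe set, with genes past the thresholds of the Methods in blue and named. Cntn2 (0.32) is the only such gene above 0, and Nectin1 (-0.48) and Fgfr1 (-0.53) lie below it.

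The genes whose brightest probe sets varied most like those of the members over the 9 arrays were ranked by Pearson's r, which is given as a description because arrays of 1 condition share their treatment. Alcam was most like Rgs4, a regulator of G protein signalling, with r = 0.97, then Tagln3 and Ifitm3 (0.95 each). For Cd47 the closest were Dync1h1, the heavy chain of cytoplasmic dynein, with 0.98, the potassium channel Kcnd2 with 0.95 and the growth factor Pdgfa with 0.92. Pdgfa was also near the top for Cdh2 (0.94), after the LIM protein Csrp1 (0.96) and before Ndrg4 (0.91). Thy1 was most like Ssr3 (0.96), the thrombin receptor F2r (0.95) and Olfm1 (0.94), at rc_AA874848_s_at. L1cam was most like the activin-binding protein follistatin, Fst (0.96), with Phrf1 (0.94) and Sst (0.92). Ncam1 had Naa20 (0.93), Kcns3 (0.92) and Ciao1 (0.91), and Cdh22 at D83349_at had Prrc2c (0.89), Neb and Psma4 (0.87 each). The sets of L1cam, Ncam1 and Cdh22 used here ranged over less than 0.4 log2 units, so their order of arrays rests on small differences.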

How the data were processed

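RNA of 9 samples, each pooled from several cultures, was hybridized to Affymetrix Rat Genome U34A arrays. The deposited log2 expression values were made by the authors with RMA (Partek Genomics Suite 6.5), and its batch removal function was then applied. Batch 1 and batch 2 had means within 6.7e-05 of each other for every probe set, and 0 pairs of arrays were identical. An array has no read depth, so the number of arrays limits the precision. After 59 control probe sets were left out of 8799, 8740 were tested. In the platform annotation 7006 name 1 gene, 308 several and 1426 none.

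BMP6h and BMP24h were each compared with control, and BMP24h with BMP6h, in limma 3.58.1 (R 4.3.3), fitting condition and batch and leaving 5 residual degrees of freedom. P-values were adjusted over all 8740 by the method of Benjamini and Hochberg. "Higher" and "lower" give the sign of a log2 fold change. The fit was run on simulated data with independent normal noise and no batch effect. Such data lack the batch removal of the deposited values, so the run cannot show how the fit behaves after it. The members, gene lists, thresholds and alternatives were chosen with earlier results of these data known. Genes named are all members at each probe set, genes of the other adhesion lists past the thresholds of the Methods at 6 or 24 hr, and the 3 genes most like each member; further names were chosen after their values were seen. Alternatives were the study's two-way analysis of variance, other normalizations, batch terms, filters, array weights, a fold change minimum of 1.5, and leaving out each array. Each batch was also taken alone, for batch 1 chosen after the data were seen. The p-values measure the spread between pooled samples of a condition that remains after batch is fitted. These samples came from separate dissections, and the part of their difference shared by a batch is taken out.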

Additional observations from a re-analysis of the deposited data

How the results depend on the processing

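No fold change of a member past the thresholds of the Methods changed sign under any alternative run. Groups that do not overlap fix much of this in advance. Of all the members' fold changes and alternatives 802 moved by less than the spread between replicates and 35 by more. In this balanced design the two-way analysis of variance, the batch terms, the intensity trend and the 2 compared conditions alone cannot move a fold change. The same holds for leaving out dimmer probe sets or an array of the third condition, so the 802 are not a measure of stability. At 24 hr the count of 7 members past the thresholds of the Methods was 4 with a fold change minimum of 1.5 and 2 in batch 2 alone. It ran from 3 (without BMP24h replicate 1 or 3) to 7 without single arrays. Over all probe sets fewer also passed at 24 hr with the minimum of 1.5, in batch 2 alone, and without BMP24h replicate 1 or 3. At 6 hr the count of 1 was 0 with the dimmer probe sets left out, since Cdh22 D83348_at is among them, and it ran from 1 to 2 (without control replicate 2). Between 24 hr and 6 hr the count of 4 was 1 with a fold change minimum of 1.5, 2 with the two-way analysis of variance, with median centring and with the 2 compared conditions alone, and 0 in batch 2 alone. It ran from 1 (without BMP6h replicate 1 or BMP24h replicate 1) to 5 (without control replicate 3), and was 2 without control replicate 1 or 2. No member passed the adjusted test of limma without any single array (0 to 0 in all 3 comparisons). With array weights, which gave BMP6h replicate 2 a weight of 0.093 and BMP24h replicate 1 one of 5.76, 5 members passed it at 24 hr, where 280 of all probe sets did, and 3 between the times, where 198 did. The cause of these differences was not tested. When the probe sets of a gene were averaged, 2 other adhesion genes in place of 1 passed the thresholds of the Methods between the times.

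A replicate block instead of the batch term gave 2 members past the thresholds of the Methods at 6 hr (Alcam AB008538_at beside Cdh22 D83348_at). It gave 7 at 24 hr and 4 between the times, and it changed no adjusted call. Alcam AB008538_at only just passed at 6 hr in this limma fit (unadjusted p 0.0498, adjusted p 0.758). With the block, more of all probe sets also passed these thresholds at 6 hr than with the batch term. The conditions of an experiment shared a dissection, but the labels do not say that a replicate number marks it. Correlations between arrays could not settle this, because batch removal makes the deviations of the replicate 1 arrays sum to about 0. Within batch 2, the differences between replicates 2 and 3 correlated by 0.048, 0.017 and 0.4 in the 3 comparisons.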

Other observations

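Chl1, the close homolog of L1cam, was past the thresholds of the Methods only between the 2 times, and it was chosen after its values were seen. It had 5.41, 5.12 and 6.22 on BMP24h arrays, against 6.35, 6.31 and 6.34 on BMP6h arrays (log2 fold change -0.75, standard error 0.32). Control arrays had 5.88, 6.09 and 5.22, so that the 6 hr arrays lay above all others, while the difference at 6 hr was 0.61 with the same standard error.

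Sirpa, the receptor of Cd47, had 3 probe sets that differed among themselves, and it too was chosen after its values were seen. At 24 hr D85183_s_at had 6.92, 6.82 and 6.95, against 7.16, 7.67 and 7.50 in control cultures (-0.54, standard error 0.28), and the groups did not overlap. The other 2 sets had -0.15 and -0.07. At 6 hr AF055065_s_at had 0.51, with BMP6h replicate 2 at 7.95 and the other 2 arrays of 6 hr at 7.09 and 6.71.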
